A study of Fukomys damarensis with 47 samples.

Results

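The lysosome and membrane traffic genes described here are the genes whose symbol begins with the name of a proton pump subunit, a cathepsin or one of the protein families that form, move and fuse membrane vesicles (ATP6, LAMP, CTS, RAB, VPS, SNX, CHMP, ARF, ARL, STX, VAMP, SEC, TMED, EXOC, TRAPPC, COP and AP1 to AP4). CTSK and ARL11 were left out. Among the 1316 genes with a symbol at hand, 39 met the rule, and all 39 were among the 11047 genes tested, of 33562 in the table. Most genes tested had no symbol at hand, so the 39 need not be all tested genes of these families. The rule read names, but the choice of members was not blind to the data. The symbols came from the supplementary gene list of the study, and the members were chosen with earlier results of these data known. Entry into the tests also required a minimum level, given with the processing below. One of the 39, COPS2, is a subunit of the COP9 signalosome and shares only the first letters of its name with the coat proteins.

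Lysosomes are acidic compartments in which proteases, among them the cathepsins, digest material that arrives from endosomes. The vacuolar ATPase (V-ATPase) pumps protons into them, and small GTPases, coats, tethers and SNARE proteins decide where vesicles form and fuse. In bone, osteoclasts place V-ATPase and lysosomal proteases at the bone surface to resorb it, and osteoblasts export large amounts of collagen through the endoplasmic reticulum and Golgi.

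RNA-Seq was performed on cells cultured from 16 adult female Damaraland mole-rats (Fukomys damarensis) of 8 natal colonies. The 5 queens, aged 1004 to 1132 days, had been rehoused with an unrelated male. The 7 helpers (1003 to 1232 days) stayed in their natal colony and the 4 solitaires (1105 to 1231 days) were housed alone, and both are nonbreeders. The cultures were enriched for bone marrow mesenchymal stromal cells (bMSCs) and came from pooled long bones (26 libraries, 16 animals) or from lumbar vertebrae, LV (21 libraries, 14 animals). In the long bones, 11 vehicle and 6 estradiol libraries came from nonbreeders and 5 and 4 from queens, and in the LV the numbers were 10 and 5 against 3 and 3. Cells received 10 nM estradiol or vehicle for 24 hr. The queen MAF006 had an LV library after estradiol only, and the queen NOF009 had none. Sisters differed in age by at most 1 day, and each colony gave 2 animals.

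The depth was 5329563 to 16327339 counts per library, with a median of 8784879. Levels below are given in CPM, an animal's added counts relative to its library total after TMM scaling, and they compare animals within a gene. Markers of stromal cells and of leukocytes were found in every animal, so the cultures were mixtures. In bulk RNA, fewer cells of a type and less RNA per cell cannot be told apart.

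The members differed in how far their level varied between animals. The median standard deviation (SD) of log2 CPM over the 16 long bone cultures was 0.47 for the members and 0.49 for all genes tested. The protease CTSS had the largest SD among the members, 2.32, followed by RAB27A (1.37), CHMP4C (1.36) and ARL14 (1.27). The smallest was that of TMED4, at 0.14. In the LV, CTSS again had the largest SD (1.71), and EXOC3, a subunit of the exocyst, the smallest (0.11).

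The first comparison asks how cells of queens differed from those of nonbreeders in the long bones, where queens and nonbreeders were compared with natal colony as a block. The 3 cathepsins had the smallest p-values of the 39 members, and all were higher in queens. No member passed a false discovery rate (FDR) of 10% in edgeR's test, as no gene did (0% of the 11047). DESeq2 called 5 members at that FDR, and 3.54% of all genes. At an FDR of 20%, 3 members were higher in queens, against 1.40% of all genes. That count was 0 without the colony block and 0 to 6 when 1 animal was left out (6 without DVF007 or DVF008, 3 without WEF001, 2 without WEF002 and 0 without any other animal). Without DVF007 or DVF008 the calls over all genes rose too, from 0% to 2.45% at an FDR of 10%. Both are of colony DV, and leaving out either takes the same pair out of the contrast. At an unadjusted p under 0.05, 6 members were higher and 0 lower, against 6.21% of all genes higher and 2.48% lower. The median log2 fold change over the members was 0.07, beside 0.02 over all genes.

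CTSS (ENSFDAG00000001690), cathepsin S, is an endosomal cysteine protease known from antigen-presenting cells. Its long bone level was 3.97 CPM in the queen DVF007, 70.5 in LAF007, 552.5 in MAF006, 668.9 in NOF009 and 139.9 in WAF014. In the 11 nonbreeders it ran from 4.28 to 177.6 CPM with a median of 45.9. MAF006 and NOF009 lay above every nonbreeder, and DVF007 was the lowest of all 16 animals. The mean was 287.1 ± 302.1 CPM (SD, n = 5) in queens and 69.7 ± 65.1 (n = 11) in nonbreeders. Each queen but DVF007 was higher than her sister, whose levels were 4.28 in DVF008, 15.6 in LAF008, 17.5 in MAF003, 145.6 in NOF007 and 4.30 in WAF011. The log2 fold change was 2.93 with a standard error (SE) of 0.75 (edgeR adjusted p = 0.190).

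CTSV (ENSFDAG00000000511) carries the symbol of cathepsin V, a close relative of cathepsin L. The symbol was absent from a RefSeq gene table, and reads of the pair may be exchanged, so the gene's identity and level are uncertain. Queens had 110.2 CPM (DVF007), 598.8 (LAF007), 412.6 (MAF006), 569.4 (NOF009) and 1010 (WAF014). The nonbreeders ran from 119.5 to 398.7 CPM with a median of 198.6. Here 4 queens exceeded all 11 nonbreeders and DVF007 was below all of them, with means of 540.3 ± 326.5 (SD, n = 5) and 227.2 ± 81.9 (n = 11). The log2 fold change was 1.22 (SE 0.31, edgeR adjusted p = 0.190).

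CTSZ (ENSFDAG00000000633), cathepsin Z, is a lysosomal carboxypeptidase. Its levels in queens were 159.5 CPM in DVF007, 329.0 in LAF007, 788.0 in MAF006, 1674 in NOF009 and 585.1 in WAF014, and in nonbreeders 152.1 to 560.9 with a median of 224.1. The groups overlapped, with 3 queens above every nonbreeder. The log2 fold change was 1.37 (SE 0.31, edgeR adjusted p = 0.145), and 4 of 5 queens were higher than their sister, as for CTSV. In these 3 genes the pair of colony DV was the one in which the nonbreeder was the higher.

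**Figure D1:**
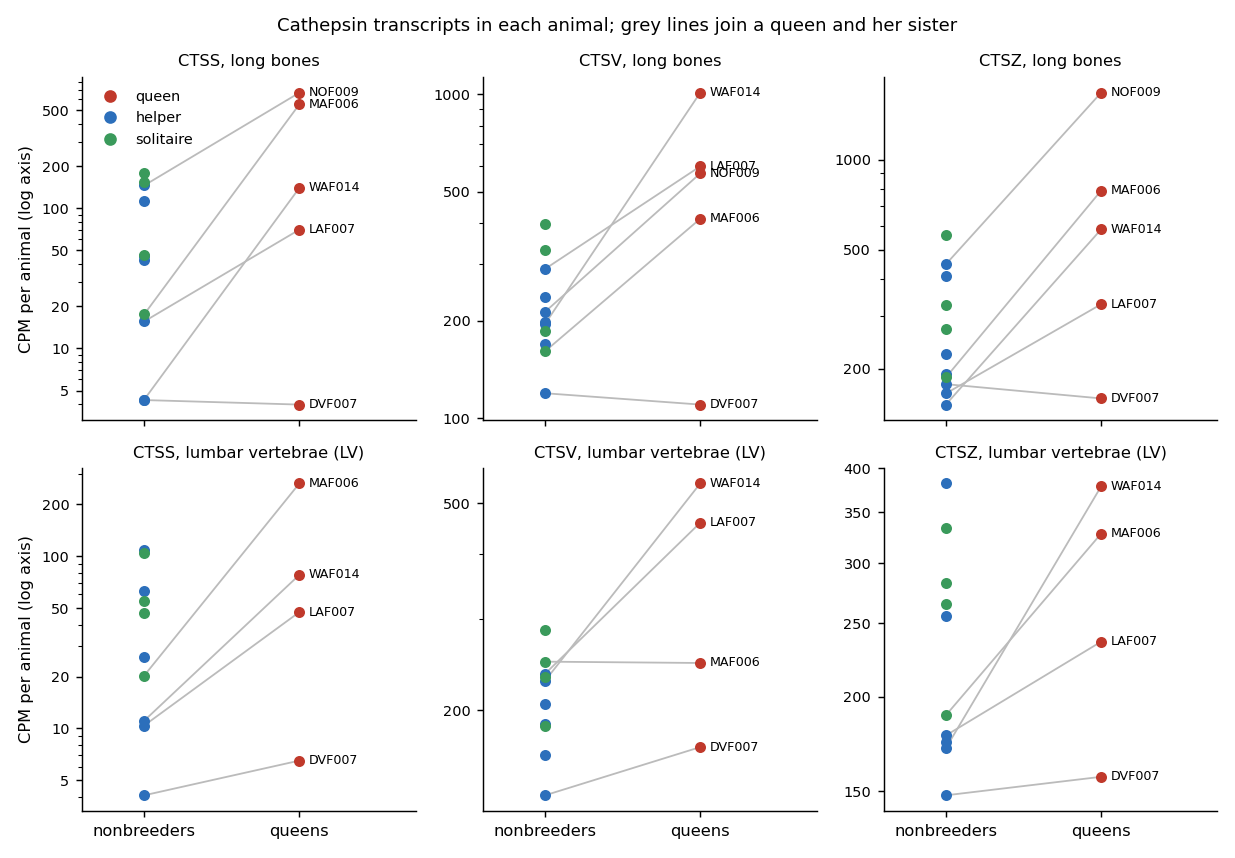
CPM per animal (log axis) of CTSS, CTSV and CTSZ in long bones (top) and LV (bottom), with 1 point per animal and grey lines from each queen to her sister. In the long bones the lines rise to the queen in 4 of 5 pairs for each gene, and CTSS spans 3.97 to 668.9 CPM among queens.

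The V-ATPase members, ATP6V0A1 of the membrane sector and ATP6V1D of the cytosolic sector, did not pass either FDR. ATP6V1D (ENSFDAG00000002261) had 104.6, 118.0, 142.1, 132.6 and 122.8 CPM in the queens DVF007, LAF007, MAF006, NOF009 and WAF014, and 82.1 to 120.8 in nonbreeders (median 108.2). All 5 queens were higher than their sister, by 0.05 to 0.41 on the log2 scale, and the log2 fold change was 0.19 (SE 0.11, edgeR adjusted p = 0.668). ATP6V0A1 (ENSFDAG00000000480) had 109.0, 38.99, 23.4, 49.98 and 31.9 CPM in the same queens and 9.31 to 89.98 in nonbreeders (median 32.7). Its log2 fold change was 0.26 (SE 0.18, edgeR adjusted p = 0.707), with 4 of 5 queens higher. The sums of LAF007 and MAF006 held a vehicle and an estradiol library, while those of their sisters held vehicle only. In both queens the estradiol library was the higher, as given below. The sum of DVF007 held vehicle only and that of her sister held both. In these pairs the sums thus differed in treatment as well as in status. The SD of the log2 level of ATP6V0A1 was 0.94 over animals and 0.30 between sisters, in sums of libraries that differed widely within some animals. In DV, both sisters were high, at 109.0 and 89.98 CPM.

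Beyond the cathepsins, 3 members had an unadjusted p under 0.05 in the long bones, and they are described because of these values. EXOC6, an exocyst subunit that tethers secretory vesicles to the plasma membrane, had 1.67, 3.84, 26.9, 15.1 and 5.72 CPM in DVF007, LAF007, MAF006, NOF009 and WAF014 and 1.97 to 6.41 in nonbreeders, with a log2 fold change of 1.13 (SE 0.38, edgeR adjusted p = 0.352). STX3, a plasma membrane SNARE, had 1.57, 2.71, 16.7, 13.1 and 6.41 CPM in the same queens and 2.21 to 8.86 in nonbreeders, with a log2 fold change of 0.98 (SE 0.40, edgeR adjusted p = 0.494). In both genes MAF006 and NOF009 lay above all nonbreeders and the other 3 queens did not. STX4, another SNARE of the plasma membrane, had 49.7, 46.8, 94.6, 89.3 and 50.4 CPM in these queens and 35.8 to 55.2 in nonbreeders. All 5 queens exceeded their sister, with a log2 fold change of 0.59 (SE 0.18, edgeR adjusted p = 0.271). The sums of MAF006 held a vehicle and an estradiol library that were over 2-fold apart in 33.7% of all genes. Among animals with both, EXOC6 reached 41.6 CPM in vehicle and 13.9 CPM in estradiol libraries of the long bones.

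MAF006 and NOF009 also stood apart in their leukocyte markers. The summed level of the 16 leukocyte markers tested was 3107 CPM in MAF006 and 2665 in NOF009, 272.7 to 569.2 in the other queens and 118.5 to 1118 in nonbreeders. The 10 osteoblast and stromal markers summed to 358.5 CPM in MAF006, 1887 in NOF009 and 7133 in DVF007, beside 1644 to 4713 in nonbreeders. The queen was higher than her sister in leukocyte markers in 4 of 5 pairs and in stromal markers in 2 of 5. The queen below her sister in leukocyte markers was DVF007, with 272.7 against 491.8 CPM.

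When both animals were left out, an alternative chosen after seeing the data, 0 members passed an FDR of 20%. The log2 fold change was then 2.45 for CTSS, 1.10 for CTSV, 0.93 for CTSZ, 0.26 for STX4, 0.63 for EXOC6 and 0.47 for STX3 (edgeR adjusted p = 1.00 for each). All of these genes thus kept their sign. The fit also lost the contrast of both queens with their sisters, so it rested on fewer pairs. The part of the marker levels in these differences was not tested.

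None of the members in the other roles had an unadjusted p under 0.05 for breeding status. The ESCRT members bend and cut membranes at the endosome and during cell division. CHMP4C was at -1.03 (log2, SE 0.52, edgeR adjusted p = 0.631), with levels from 0.918 CPM in MAF006 to 33.8 in DVF007. CHMP6 (41.7 to 87.4 CPM over the 16 animals) and VPS37A (68.5 to 114.5 CPM) were at -0.23 and 0.21. CHMP4C was thus the ESCRT member with the largest spread, and its lowest and highest levels were both in queens.

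Among the 5 genes of endosome and lysosome traffic, log2 fold changes lay between -0.19 and 0.21 and none had an unadjusted p under 0.05. They include SNX1 of the retromer pathway (105.8 to 202.2 CPM), VPS52, a tether at the Golgi (27.8 to 110.7), the lipid transfer protein VPS13A (11.5 to 69.0) and the AP-3 adaptor subunit AP3M1 (54.3 to 88.5).

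The 7 Rab GTPases and their regulators were all above 0 in queens, between 0.05 and 0.48 on the log2 scale, with 0 of 7 at an unadjusted p under 0.05. RAB8A, which directs vesicles to the plasma membrane, had the largest value (0.48, SE 0.31) and ran from 15.5 to 50.8 CPM. RAB27A, which docks secretory lysosomes, ran from 3.86 to 74.6 CPM, RAB28 from 48.0 to 127.2, RAB40C from 3.98 to 31.1 and RABL3 from 31.8 to 76.9. RAB3IL1, an exchange factor for Rab proteins, ran from 0.702 to 14.6 CPM, and RABGAP1L, a Rab GTPase activator, from 6.65 to 23.4. The 4 Arf-like GTPases were all below 0, from -0.78 for ARL14 (SE 0.66) to -0.002 for ARL16, and none had an unadjusted p under 0.05. Their levels were 0.153 to 12.1 CPM for ARL14, 17.4 to 30.9 for ARFRP1, 2.19 to 5.83 for ARL15 and 1.93 to 5.05 for ARL16.

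Of the 6 members at the endoplasmic reticulum and Golgi, 5 had a negative log2 fold change and none an unadjusted p under 0.05. SEC61A1, the channel through which new proteins enter, was at -0.33 (SE 0.30) with 100.02 to 1103 CPM. SEC23A, a COPII coat protein needed for procollagen export, was at -0.68 (SE 0.38) with 60.4 to 317.3 CPM and lay below the sister's level in 5 of 5 queens. The cargo receptor TMED4 was at -0.15 (131.7 to 183.9 CPM) and was also lower in 5 of 5 queens, while TMED7, of the same family, was at 0.34 (3.18 to 7.72 CPM). The coat protein COPZ2 (4.51 to 66.8 CPM) was at -0.20 and the Arf regulator ARFGAP3 (48.2 to 109.8 CPM) at -0.05.

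The remaining exocyst subunits were EXOC2 (7.06 to 55.9 CPM, log2 fold change 0.34) and EXOC3 (112.8 to 197.9 CPM, -0.03). Of the other SNARE genes, VAMP4 of the trans-Golgi (24.3 to 66.4 CPM) was at 0.25, and the syntaxin binding proteins STXBP4 (10.6 to 23.2 CPM) and STXBP5 (8.25 to 77.8 CPM) were at -0.25 and 0.35. COPS2 (143.9 to 279.4 CPM) was at -0.03. None of these 6 genes had an unadjusted p under 0.05.

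**Figure D2:**
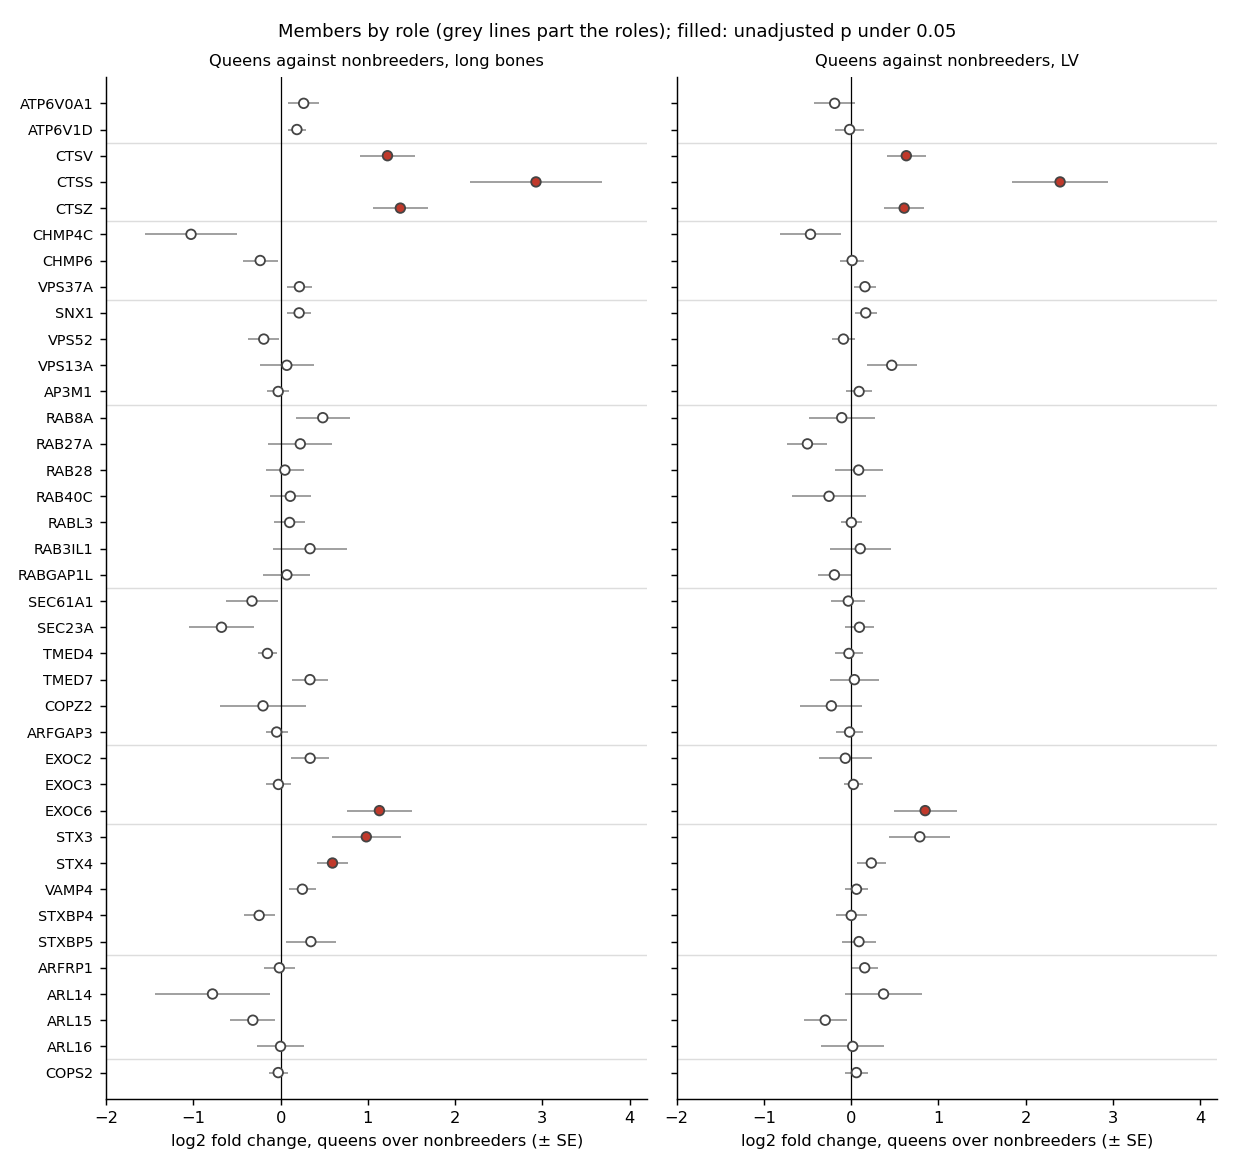
Log2 fold change of queens over nonbreeders (horizontal axis, bars are ± 1 SE) for 38 of the 39 members in order of role, in long bones (left) and LV (right), with filled points at an unadjusted p under 0.05. The 6 filled points on the left and 4 on the right all lie above 0, and CTSS is the farthest out on both sides, at 2.93 and 2.40.

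Other genes of these pathways, which the name rule does not reach, were described from 3 lists. These lists were chosen with earlier results of these data known, so their counts are not independent of the data. Over all genes, 6.21% were higher in queens in the long bones at an unadjusted p under 0.05 and 2.48% lower. Of 21 other lysosome genes tested, 5 were higher and 0 lower at that p, 0 passed either FDR in edgeR, and the median log2 fold change was 0.32. These 5, named after their values were seen, were ASAH1, the acid ceramidase (0.80), GLMP (0.67), the lipid kinase PIKFYVE (0.63), CTNS, the cystine exporter (0.58), and RMC1 (0.43), with edgeR adjusted p from 0.226 to 0.549. Of 24 endosome and Golgi genes, 0 had an unadjusted p under 0.05 in edgeR's test (median -0.01). Of 10 genes of translocation into and exit from the endoplasmic reticulum, 1 was lower, the cargo receptor LMAN1 (-0.37), with a median of -0.22. CTSK, the collagen-degrading cathepsin of osteoclasts, was at 0.42 (SE 0.26, edgeR adjusted p = 0.695).

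Beside these values, 10 of the 16 leukocyte markers tested were higher in queens at an unadjusted p under 0.05, against 6.21% of all genes. Of these 10, 3 passed an FDR of 20%, against 1.40% of all genes, and the median of the list was 1.52. The marker lists, too, were chosen with earlier results of these data known, so these counts are not independent of the data. The leukocyte list holds LAPTM5, itself a protein of the lysosomal membrane (1.65, SE 0.54). The 10 stromal markers had a median of -0.41 and the 4 endothelial markers one of -0.35, with 0 of either at an unadjusted p under 0.05 in edgeR's test.

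In the LV, 4 queens were compared with 10 nonbreeders, and with the colony block the fold changes rest on the 4 pairs of a queen and her sister. MAF006 had an LV library after estradiol only and her sister MAF003 after vehicle only. Status and treatment cannot be told apart in that pair. CTSS was again the member with the largest difference. In edgeR 0 members passed an FDR of 10%, against 0% of all genes, while DESeq2 called 1, CTSS, and 0.950% of all genes. At an unadjusted p under 0.05, 4 members were higher in queens and 0 lower, against 2.63% and 0.797% of all genes, with a median log2 fold change of 0.03 over members and 0.01 over all genes. With vehicle libraries only, CTSS alone had such a p, and without the colony block CTSS (log2 fold change 1.13) and CTSZ (0.21) did not.

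CTSS in the LV had 6.50 CPM in DVF007, 47.4 in LAF007, 264.7 in MAF006 and 77.9 in WAF014, and 4.08 to 109.2 in nonbreeders (median 36.2). Each of the 4 queens was higher than her sister, DVF007 included, but the groups overlapped and MAF006 alone lay above every nonbreeder. The log2 fold change was 2.40 (SE 0.55, edgeR adjusted p = 0.735). CTSV had 169.9, 458.7, 246.5 and 545.8 CPM in DVF007, LAF007, MAF006 and WAF014, and 137.2 to 285.9 in nonbreeders, at 0.63 (SE 0.23, edgeR adjusted p = 0.999) and with 3 of 4 queens higher. CTSZ had 156.7, 236.3, 328.0 and 378.6 CPM in these queens and 148.2 to 382.0 in nonbreeders, at 0.61 (SE 0.23, edgeR adjusted p = 0.999) and with 4 of 4 higher. For CTSZ no LV queen exceeded the highest nonbreeder. The fourth member was EXOC6, at 0.85 (SE 0.36, edgeR adjusted p = 0.999) and higher in 4 of 4 queens. It had 14.8 CPM in MAF006 and 1.99 to 3.05 in the other queens, and without MAF006 the log2 fold change was 0.48.

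ATP6V0A1 in the LV had 28.8, 12.1, 8.33 and 49.6 CPM in DVF007, LAF007, MAF006 and WAF014 and 9.65 to 50.4 in nonbreeders, with a log2 fold change of -0.19. ATP6V1D had 146.2, 139.2, 133.2 and 116.1 CPM and 93.9 to 178.4 in nonbreeders, at -0.02. Neither passed the FDR (edgeR adjusted p = 0.999 each), and the sign of both turned with other settings. Of the other lysosome genes, 2 of 21 were higher at an unadjusted p under 0.05, ASAH1 (0.66) and PIKFYVE (0.39), against 2.63% of all genes. Leukocyte markers summed to 84.5 to 1178 CPM in LV queens and 91.5 to 916.9 in nonbreeders. At an unadjusted p under 0.05, 7 of these 16 markers were higher in queens, against the same 2.63%, with a median of 1.301.

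Whether queens differed more in the long bones than they did in vertebral cells was tested as an interaction in the animals with both bone types. No member passed an FDR of 10% in edgeR or in DESeq2 (edgeR called 0% of all genes), and 1 member was higher and 1 lower at an unadjusted p under 0.05, against 2.35% and 2.53% of all genes. The queen effect on ARL14 had a log2 difference of -1.62 (SE 0.60), that is, lower in the long bones. Its levels in the long bones of DVF007, LAF007, MAF006 and WAF014 were 2.72, 9.36, 0.153 and 8.29 CPM, and in their LV 18.5, 24.3, 3.55 and 7.55. That on ATP6V0A1 was higher by 1.00 (SE 0.44) and that on CTSZ by 0.50 (SE 0.25), all with edgeR adjusted p = 0.794. With vehicle libraries only, the values were -0.057 for ATP6V0A1, -1.04 for ARL14 and 0.28 for CTSZ. A difference in the cathepsins between bone types was thus not shown.

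Without WAF014, 4 members passed the same FDR in this test, ATP6V0A1, ARL14, RAB40C and EXOC2, together with 9.89% of all genes. Of these, ATP6V0A1 was then at 1.57 (edgeR adjusted p = 0.0257) and ARL14 at -2.30 (edgeR adjusted p = 0.0336).

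The vehicle libraries of 13 animals compare the long bones with the LV of the same animal. LV cells were released with collagenase P and long bone cells were not, so bone type and isolation cannot be told apart. At an FDR of 10%, 1 member was higher in the long bones and 1 lower, against 4.05% and 2.79% of all genes. DESeq2 called 3 members and 9.69% of all genes. At an unadjusted p under 0.05 the counts were 4 and 1, against 9.48% and 6.85%. The median over the members was 0.08 and that over all genes 0.04.

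CHMP4C, the ESCRT-III subunit of the abscission checkpoint in dividing cells, ran from 5.22 to 34.9 CPM in the long bones with a median of 19.7, and from 5.14 to 20.8 in the LV with a median of 13.6. It was higher in the long bones in 12 of 13 animals, with a log2 fold change of 0.52 (SE 0.13, edgeR adjusted p = 0.0335). ATP6V1D ran from 81.9 to 138.7 CPM in the long bones (median 108.1) and from 97.3 to 178.8 in the LV (median 130.2). It was lower in the long bones in 11 of 13 animals, at -0.26 (SE 0.08, edgeR adjusted p = 0.0957). This call held in 3 of the 13 fits that left out an animal and was lost without any of DVF007, DVF008, G1F025, G4F019, G4F020, LAF007, LAF008, MAF003, NOF007 and WEF001, where the adjusted p was 0.115 to 0.188. RAB27A ran from 3.94 to 73.7 CPM (median 14.7) in the long bones and from 1.66 to 27.6 (median 9.06) in the LV, at 0.94 (SE 0.34, edgeR adjusted p = 0.160), and was higher in 9 of 13. Without the animal block neither CHMP4C nor ATP6V1D passed (edgeR adjusted p = 0.432 and 0.226), and with all libraries of each animal added 7 members did, beside 19.7% of all genes.

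**Figure D3:**
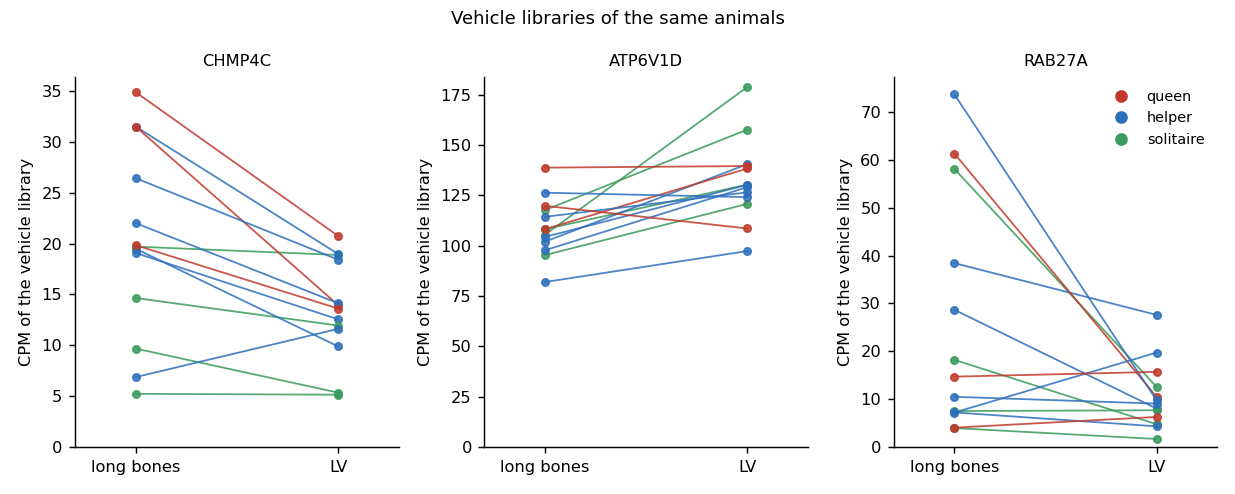
CPM of CHMP4C, ATP6V1D and RAB27A in the vehicle libraries of 13 animals, with a line from each animal's long bones to its LV. The lines of CHMP4C fall toward the LV in 12 of 13 animals and those of ATP6V1D rise in 11 of 13.

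Beside this, 5 of 16 leukocyte markers were higher in the long bones at an FDR of 10%, led by SLAMF7 (1.22, edgeR adjusted p = 0.00667), LCP2 (1.16) and LAPTM5 (1.12). The stromal marker PHEX was lower (-0.62, edgeR adjusted p = 0.0468). As a list, though, the 10 stromal markers had 6 above 0 and 4 below, with a median of 0.11. The part of these markers in the differences of the members was not tested. Of the other pathway lists, 1 of 24 endosome and Golgi genes was higher, DENND4A (0.53, edgeR adjusted p = 0.0241), and 0 of 21 lysosome genes and 0 of 10 endoplasmic reticulum genes passed in edgeR. CTSK was at -0.24 (SE 0.19) and higher in the long bones in 5 of 13 animals.

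Estradiol was compared with vehicle within the 10 animals whose long bone cells received both, and within 7 in the LV. No member passed an FDR of 10% in edgeR or in DESeq2 in either bone type, and edgeR called 0% of all genes. At an unadjusted p under 0.05, edgeR gave 0 members in both, against 1.17% of all genes in long bone cultures and 0.498% in LV cultures. The smallest p in the long bones belonged to ATP6V0A1 (0.57, SE 0.38), RAB28 (0.15, SE 0.11) and ARL14 (0.20, SE 0.16), each with edgeR adjusted p = 1.00. In the LV it belonged to VPS13A (0.25, SE 0.15, higher in 6 of 7), ARFRP1 (-0.24, SE 0.17, higher in 1 of 7) and EXOC6 (0.26, SE 0.24, higher in 6 of 7), again with edgeR adjusted p = 1.00.

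ATP6V0A1 differed widely between the libraries of some animals and little in others. It went in the long bones from 9.76 CPM with vehicle to 76.8 with estradiol in LAF007, from 8.70 to 60.6 in WAF011 and from 12.4 to 35.2 in MAF006. It went from 44.6 to 19.7 in WAF014, and in the other 6 animals the difference was between -0.21 and 0.39 on the log2 scale. In the LV it went from 6.26 to 20.9 CPM in WEF001 and from 18.9 to 58.3 in DVF008, but from 52.3 to 13.3 in WAF011 and from 74.2 to 21.5 in WAF014. WAF011 thus moved up in the long bones and down in the LV.

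EXOC2, SEC61A1 and RAB3IL1, singled out after their values were seen, moved with ATP6V0A1 in most of these pairs. In LAF007 (long bones) the differences were 2.95 for ATP6V0A1, 2.76 for EXOC2, 2.40 for SEC61A1 and 2.77 for RAB3IL1, and in WAF011 they were 2.77, 2.34, 2.14 and 1.95. In the LV of WAF011 they were -1.95, -2.09, -1.78 and -1.10. In MAF006 EXOC2 moved by 0.19, and in WEF002 RAB3IL1 went from 8.08 to 0.278 CPM while ATP6V0A1 moved by -0.21.

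Some pairs were apart in many other genes as well. Long bone libraries of WEF002 were over 2-fold apart in 44.5% of all genes, those of MAF006 in 33.7%, of LAF007 in 30.1% and of WAF011 in 22.5%, against 1.41% to 5.05% in the other 6 animals. Of the 39 members, 19 were over 2-fold apart in WEF002, 10 in each of MAF006, LAF007 and WAF011, and 0 to 3 in the others. In the LV, the pairs of WEF001 (9 members, 23.4% of genes), DVF008 (8, 22.1%), WAF014 (7, 18.2%) and WAF011 (5, 18.9%) were the widest. What sets these libraries apart, an exchange of libraries included, was not tested. Without WAF011, 4 members and 12.6% of all genes passed an FDR of 10% between bone types, against 2 and 6.83% with all animals.

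**Figure D4:**
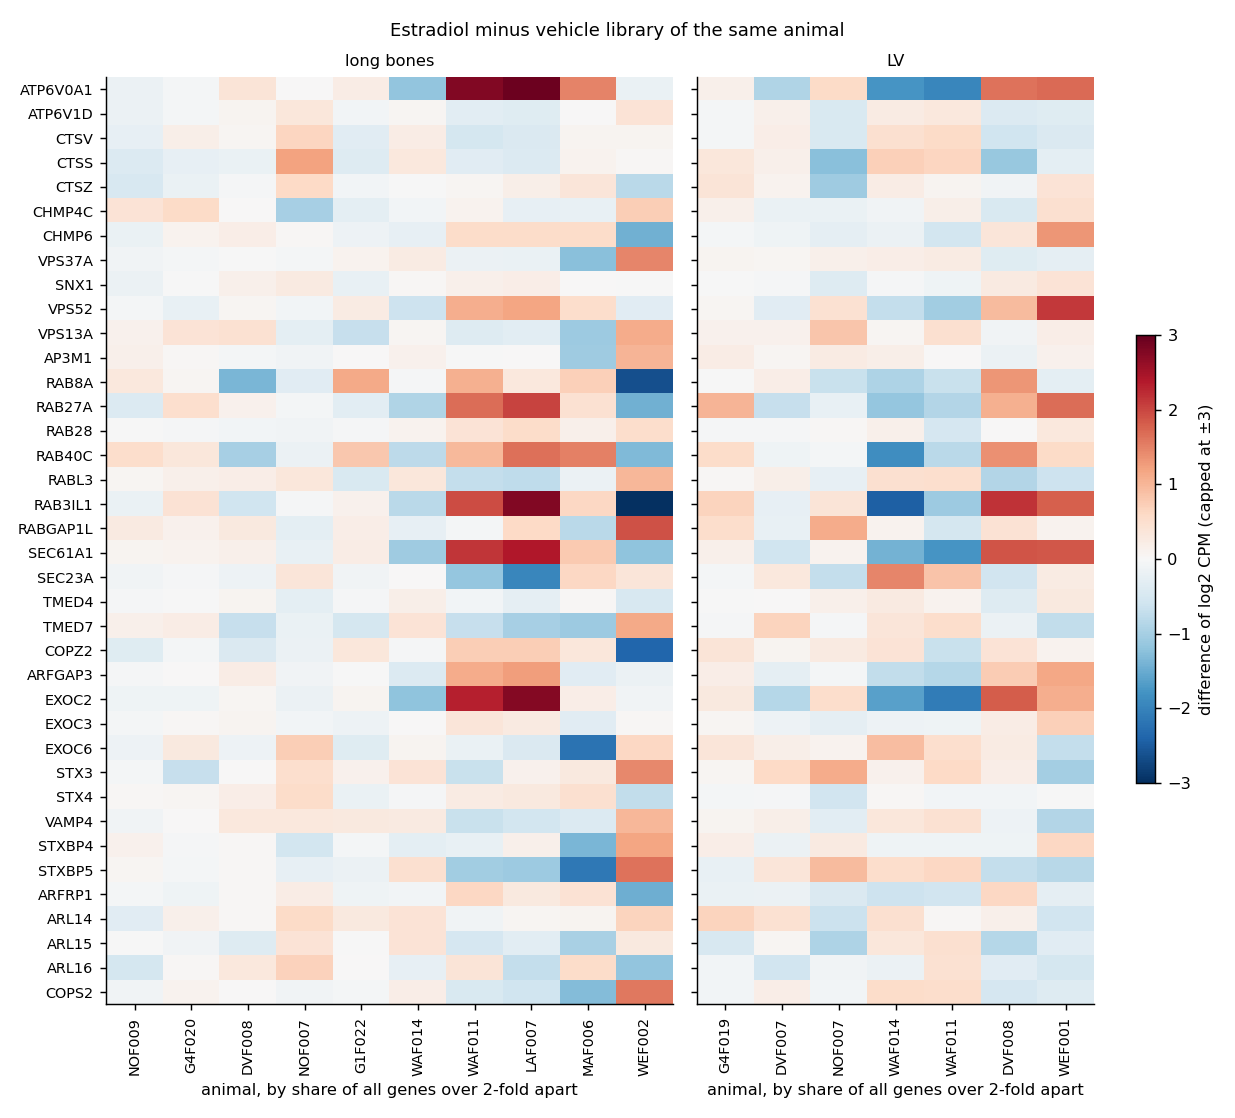
Log2 difference between the estradiol and the vehicle library of each animal (red higher with estradiol, blue lower, capped at 3 in either direction) for 38 of the 39 members, in long bones (10 animals, left) and LV (7 animals, right), with animals ordered by the share of all genes over 2-fold apart. The columns at the right of each panel, up to WEF002 (44.5%) and WEF001 (23.4%), hold most of the colour, and rows differ in sign between animals.

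Solitaires and helpers, which differ in housing but not in breeding, were compared in a fit that held the queens as a status of their own. The solitaire MAF003 had the queen MAF006 and no helper as her sister. In both bone types the estimates therefore also drew on the pairs with a queen. In the long bones 0 members passed an FDR of 10% in edgeR or in DESeq2, against 0.00905% of all genes (1 gene), and 1 member was lower at an unadjusted p under 0.05, against 4.44% of all genes. This was STXBP5, which restrains SNARE assembly, at -0.63 (SE 0.28, edgeR adjusted p = 0.559). Its levels in the solitaires G1F025, G4F020, MAF003 and WEF001 were 16.6, 14.9, 22.5 and 25.3 CPM, and in the 7 helpers 10.8 to 39.4 with a median of 16.9, so the groups overlapped. SEC23A had 232.5, 244.0, 317.3 and 308.9 CPM in these solitaires and 94.9 to 311.2 in helpers (0.73, SE 0.40, edgeR adjusted p = 0.588). COPZ2 had 53.2, 52.4, 27.8 and 19.4 CPM and 23.0 to 58.2 in helpers (0.92, SE 0.53, edgeR adjusted p = 0.599). The log2 difference of MAF006 over MAF003 was 1.78 for STXBP5, -2.39 for SEC23A and -2.59 for COPZ2. In fits that left out an animal, STXBP5 had an unadjusted p under 0.05 only without an animal of colony G1 or G4. Without the colony block the log2 fold changes were 0.026 for STXBP5, 0.40 for SEC23A and 0.04 for COPZ2.

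In the LV, again 0 members passed in edgeR or in DESeq2 (0% of all genes in edgeR), and 1 was higher at an unadjusted p under 0.05, against 1.70% of all genes. It was CTSV, with 231.3, 186.1, 248.0 and 285.9 CPM in G1F025, G4F020, MAF003 and WEF001 and 137.2 to 235.0 in 6 helpers, at 0.52 (SE 0.22, edgeR adjusted p = 0.998). ARL14 had 1.45, 2.06, 6.05 and 5.16 CPM in these solitaires and 1.301 to 11.1 in helpers (1.03, SE 0.49). TMED4 had 182.5, 189.4, 154.4 and 165.7 CPM and 145.1 to 182.1 in helpers (0.35, SE 0.17). Both had an edgeR adjusted p = 0.998, and all 3 genes overlapped between the groups. Without the colony block ARL14 was at -0.73, CTSV at 0.30 and TMED4 at 0.06.

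How the members varied with the cell type markers was described over the 16 long bone cultures, which form 8 sister pairs and are not independent. Each member was correlated with the log2 of the summed level of the leukocyte and of the stromal markers, 78 relations in all, with two-sided permutation tests and Benjamini-Hochberg adjustment. In 23 relations both Pearson's r and Spearman's rho had an adjusted p under 0.05. Of these, 7 were positive and 2 negative with leukocyte markers, and 6 were positive and 8 negative with stromal markers.

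EXOC6 followed the leukocyte markers most closely (r = 0.90, adjusted permutation p = 0.00026; rho = 0.89, adjusted p = 0.00156). STX3 (r = 0.89, rho = 0.85), CTSZ (r = 0.87, rho = 0.83), CTSS (r = 0.79, rho = 0.76), STX4 (r = 0.78, rho = 0.61), VPS13A (r = 0.76, rho = 0.79) and RAB8A (r = 0.63, rho = 0.67) were also positive, with adjusted permutation p-values up to 0.0467. Without MAF006 and NOF009, the animals farthest from the median, r was 0.79 for EXOC6, 0.76 for STX3, 0.76 for CTSZ, 0.64 for CTSS, 0.42 for STX4, 0.69 for VPS13A and 0.64 for RAB8A. The differences between sisters also followed those of the leukocyte markers. Their r was taken about 0 and not about the mean (uncentred), unlike Pearson's r. It was 0.98 for EXOC6, 0.94 for CTSS, 0.92 for STX3 and 0.91 for CTSZ over 8 pairs, and was not computed without the pairs of MAF006 and NOF009. Of the 7 members positive with leukocyte markers, all but VPS13A and RAB8A had an unadjusted p under 0.05 for breeding status in the same cultures.

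CTSV was the cathepsin with no such relation over animals (r = 0.35, adjusted permutation p = 0.251, and rho = 0.38, adjusted p = 0.229), although the uncentred r of its sister differences was 0.85. Its highest level, 1010 CPM, was in WAF014, whose leukocyte markers summed to 569.2 CPM. ATP6V0A1 had r = 0.03 (rho = 0.01) and ATP6V1D r = 0.46 (rho = 0.37) with leukocyte markers, neither with an adjusted permutation p under 0.05.

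CHMP4C showed the opposite pattern, with r = 0.91 for stromal markers (rho = 0.87, adjusted permutation p = 0.00026 and 0.00156) and r = -0.82 for leukocyte markers. Without DVF007 and MAF006 the stromal r was 0.82. The other members positive with stromal markers were COPZ2 (r = 0.87), SEC61A1 (r = 0.84), ARFGAP3, VPS52 and RAB40C, and those negative were VPS13A, STXBP5, EXOC6, VAMP4, STX3, CTSS, STX4 and VPS37A. STXBP4 was the second member negative with leukocyte markers (r = -0.67). The points share their libraries, since every level is a fraction of the same total, and in MAF006 the leukocyte sum was the highest and the stromal sum the lowest of the 16 animals.

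**Figure D5:**
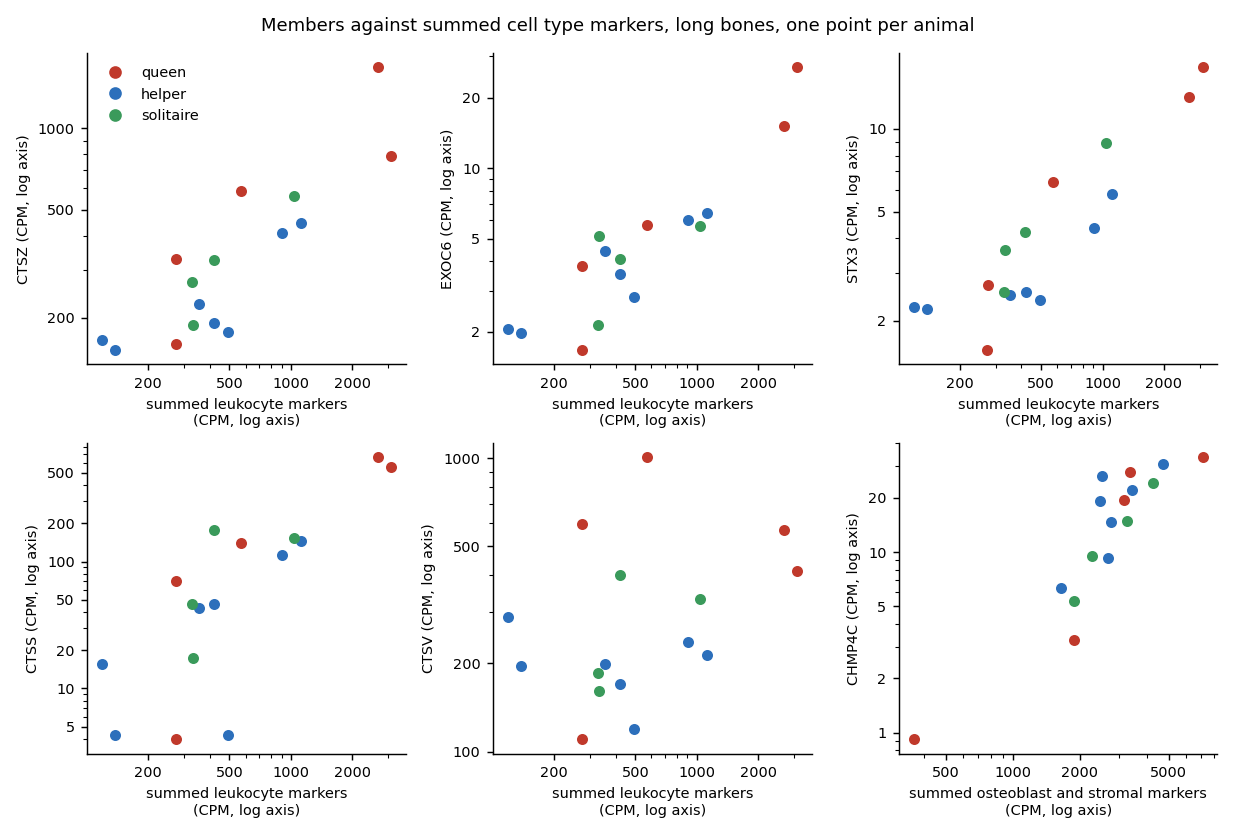
CPM of CTSZ, EXOC6, STX3, CTSS and CTSV against the summed leukocyte markers, and of CHMP4C against the summed osteoblast and stromal markers, in the 16 long bone cultures (both axes log, 1 point per animal). CTSZ, EXOC6, STX3 and CTSS rise with the leukocyte markers up to MAF006 (3107 CPM) and NOF009 (2665 CPM), while CTSV is highest, at 1010 CPM, in an animal of 569.2 CPM.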

How the data were processed

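RNA-Seq libraries (polyA-selected, low-input kit, single-end Illumina) were made from cell cultures. The authors trimmed reads with cutadapt 2.3 and mapped them with STAR to the assembly DMR_v1.0. They deposited counts of uniquely mapped reads per Ensembl gene, made with HTSeq. The strand setting of the counting was not given in the sources used here, so overlapping genes are uncertain. Symbols came from the supplementary gene list of the study. Its fold changes and p-values were not used. A RefSeq gene table held 38 of the 39 symbols (not CTSV) and gave no coordinates.

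The members, marker lists and pathway lists were chosen with earlier results of these data known. CD27 and RRAGD, on 2 of the lists, were not tested.

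Genes that reached 2 CPM in 25% or more of the 47 libraries entered the tests with edgeR 4.0.16 (quasi-likelihood, TMM, R 4.3.3; two-sided, Benjamini-Hochberg over 11047 genes) after a test on simulated counts. For status and housing, counts were summed per animal and bone type, with natal colony as the block. These sums added vehicle and estradiol libraries, so sisters could differ in treatment. For bone type, the interaction of bone type with status, and estradiol, animal was the block. Natal colony is no label and was read from the start of an animal's name. For 2 pairs, neither with a queen, the study reports different fathers. Same-colony animals deviated together, with a correlation of 0.191 to 0.817 in 8 long bone pairs and 0.293 to 0.608 in 6 LV pairs. Days in culture are not in the labels and were not modelled. Levels use a prior count of 2 on the log2 scale, and correlations used 100000 resamples (scipy 1.17.1). Plots were drawn with matplotlib 3.10.9.

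All members are named with their range except 1, which is not reported here. Full values are given for V-ATPase members and cathepsins between queens and nonbreeders, for members past an FDR of 10% and, where fewer than 3 passed, for the 3 with the smallest p, and for genes of other lists past that FDR (at most 3 per list). Others are said to be chosen after their values were seen. Alternatives were DESeq2 1.42.0 (Wald test, and its size factors), no filter, no replicate block, vehicle libraries only, all libraries added for bone type, leaving out each animal, levels without TMM or with a prior count of 0.5, and, added after seeing the data, leaving out MAF006 and NOF009.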

Additional observations from a re-analysis of the deposited data

Results flagged for a closer look

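ARFRP1, an Arf-related GTPase of the trans-Golgi, differed between the estradiol and the vehicle LV library of DVF008 by 0.63 on the log2 scale, from 19.9 CPM with vehicle to 30.8 with estradiol. In the other 6 animals with both libraries the difference lay between -0.61 and -0.18. DVF008 was singled out because its gap to the nearest animal was 0.648 of the range over 7 animals, and its LV libraries were among those that were apart in many genes (22.1% over 2-fold). Of 33 groups of values examined this was the 1 so marked, and chance marks about 1 in 20.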

How the results depend on the processing

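The counts between queens and nonbreeders depended on the processing. In the long bones, the members past an FDR of 10% numbered 0 with all choices as described, 6 with all genes that had a count (3.88% of all genes tested), 5 with DESeq2 (3.54%), 1 with vehicle libraries only (CTSS, 0.688%) and 0 to 5 on leaving out an animal (5 without DVF007 or DVF008, 2.45%). Past an FDR of 20% they numbered 3, and 7 with all genes, 5 with DESeq2, 0 with no replicate block, 0 without MAF006 and NOF009, and 0 to 6 on leaving out an animal. Of those fits, 6 came without DVF007 or DVF008, 3 without WEF001, 2 without WEF002 and 0 without any of the other 12. A queen and her sister drop out of the contrast together, so their fits are not separate checks. In the LV, 3 members passed an FDR of 10% with all genes (1.43%) and 1 with DESeq2 (0.950%). In the fits of queens with all genes, edgeR set an infinite prior degree of freedom, so each gene's own spread did not enter. For the interaction of bone type with status the count was 0 to 4 on leaving out an animal (4 without WAF014, 9.89%). For long bones against LV it was 2 (6.83%), and 0 with no replicate block (2.27%), 7 with all libraries added (19.7%) and 1 to 4 on leaving out an animal (4 without WAF011, 12.6%). Counts for estradiol and for solitaires were 0 at an FDR of 10% in edgeR and in DESeq2 under every alternative run. Marker relations numbered 23, and 25 without TMM.

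Some small log2 fold changes changed sign. ATP6V0A1 between queens and nonbreeders in the LV was at 0.26 with vehicle libraries only and at -0.52 to 0.016 on leaving out an animal. ATP6V1D there was at 0.068 with no replicate block, 0.012 with vehicle libraries only and -0.18 to 0.12 on leaving out an animal. Those without LAF007 and LAF008 (ATP6V0A1, 0.0091 and 0.016) and without MAF003, MAF006, WAF011 and WAF014 (ATP6V1D, 0.12, 0.11, 0.05 and 0.04) were above 0. ATP6V0A1 in the interaction was at -0.057 with vehicle libraries only. With no replicate block, STXBP5 in solitaires (long bones) was at 0.026 and ARL14 in solitaires (LV) at -0.73. The causes were not tested. Of 511 alternative log2 fold changes of named members, 463 kept direction and side of the threshold, 23 came past it, 13 fell short of it and 12 reversed.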
